A study of Mus musculus with 12 samples.

Results

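The difference between high and low clones in their response to lipopolysaccharide (LPS) was measured in 6 clones of the MH-S line, which derives from alveolar macrophages of the mouse. Clones 69, 73 and 83 are labelled as having high IL-4Ra activity, and clones 7, 29 and 75 as having low IL-4Ra activity. IL-4Ra is the receptor chain through which IL-4 and IL-13 signal; the sources used here do not say what "activity" means or how it was measured. Cells of each clone received LPS from Salmonella Minnesota R595 (0.2 µg per ml) over 16 h or went unstimulated for the same time ("at rest"), with 1 microarray per clone and condition. The 12 arrays therefore form 4 groups of 3, and all 12 were used. The response of a gene in a clone is its log2 level with LPS minus its log2 level at rest, which gives 6 responses per gene. The difference of responses is the mean of the 3 high clones minus the mean of the 3 low clones, so a value below 0 means a smaller response in high clones. It was tested over 27296 genes, all of them features of the main category that carry a symbol. Each phenotype is represented by 3 clones of a single line, so the p-values measure the spread between these clones.

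LPS is sensed by TLR4, which signals from the cell surface to NF-kB and inflammatory genes and from endosomes, through the adaptor TRIF, to interferon beta. Interferon then acts back on the cell through its own receptor, and factors that include STAT2 and IRF9 switch on the interferon-stimulated genes, among them antiviral proteins, guanylate-binding proteins and CXCR3 chemokines. IL-4 receptor signalling runs through STAT6 and is known for the alternative, tissue-repair state of macrophages.

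The 12 arrays had median log2 levels of 4.42 to 4.46. The SD of the log2 values was 2.464 on the LPS array of clone 75 and 2.498 to 2.535 on the others. The macrophage genes Csf1r, Cd68 and Lyz2 lay between 10.75 and 12.67 on every array, whereas the integrin gene Itgam had a median of 5.38. Of the genes that define alveolar macrophages, Siglecf (3.61 to 4.14), Marco (3.74 to 4.27) and Car4 (3.28 to 3.73) stayed below the array median and Ear1 (2.24 to 4.25) did too. Itgax (5.69 to 8.42) and Pparg (4.64 to 6.75) lay above it on all 12 arrays, and Fabp4 ran between 3.90 and 7.41. The label of macrophage was thus borne out, whereas 4 of the 7 alveolar markers stayed below the array median.

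High clones had smaller responses than low clones for a small set of genes, 3 of which (Ifit1, Rsad2 and Ifih1) are on the list of interferon-stimulated genes used here. Of all genes tested, 14 had a smaller response in high clones (0.0513%) and 1 had a larger one (0.00366%) at a Benjamini-Hochberg adjusted p under 0.05, together 0.055%. At an unadjusted p under 0.05 the numbers were 1123 smaller (4.11%) and 892 larger (3.27%). Among the 14 were the CXCR3 chemokine gene Cxcl11, the itaconate-forming enzyme gene Acod1, the long noncoding RNA AW112010, the interferon-induced genes Ifit1, Rsad2 and Ifih1, the relatives Ifit1bl1 and Ifit1bl2, the guanylate-binding protein gene Gbp11, Trim30c and Apol7b. LOC630751, Gm12250 and Gm4951 complete the 14 and 4930438A08Rik is the 1 gene with a larger response; these predicted genes are outside the naming rule and were named after their values were seen. In the low clones 13 of the 14 rose with LPS, the exception being Apol7b, against 4.77% of all genes. In the high clones 10 of the 14 rose and Apol7b fell, while LOC630751, Gm12250 and Gm4951 did not pass, against 3.04% of all genes higher and 3.62% lower. The 14 genes were picked by a test on these same responses, so these counts describe them and add no support. The count of 14 rested on the full set of clones. It was 4 without clone 69, 3 without clone 73, 83, 29 or 75, and 5 without clone 7, and it was 3 in a fit that ignores the pairing of arrays by clone. Trim30c passed in each of these fits, and the signs of the 15 differences stayed the same. In a bulk culture a weaker response of every cell and a response of fewer cells cannot be told apart.

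**Figure D1:**
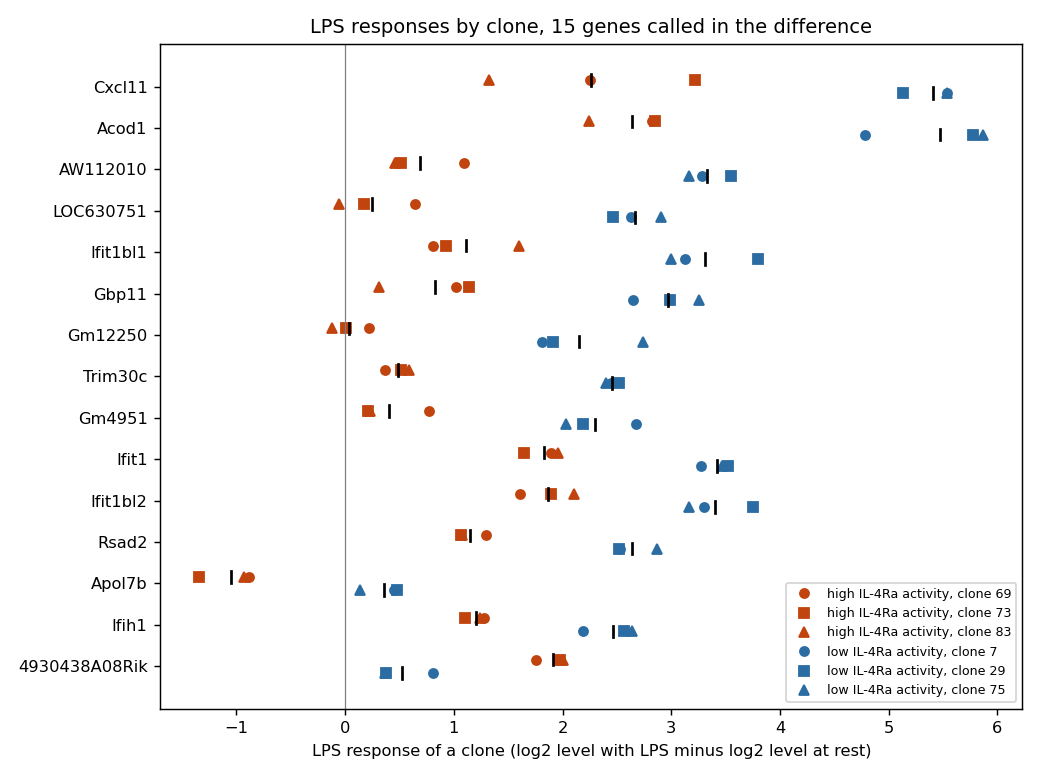
LPS response (log2 level with LPS minus log2 level at rest) of the 15 genes called in the difference of responses, by clone; red points are the 3 high clones, blue points the 3 low clones, symbols mark the clone and black bars the group means. Responses of the 2 groups do not overlap for any of the 15 genes (over all genes, high clones are all below in 6.69% and all above in 6.46%), and 4930438A08Rik is the only one with larger responses in high clones.

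The 15 genes were separated by whether high and low clones already differed at rest. With LPS 268 genes were higher in high clones and 91 were lower (0.982% and 0.333% of all genes, together 1.32%), and at rest 251 were higher and 59 lower (1.14%). These counts also rested on all clones: without clone 29 they were 77 and 31 with LPS and 37 and 1 at rest, and no clone could be left out without the 251 falling to 149 or fewer. Of the 15 genes, 10 were called between the phenotypes only with LPS, 4 were called at rest and not with LPS, and 1 (Ifih1) was called in neither condition. Being called only with LPS does not show that the phenotypes were alike at rest. An unstimulated array enters the difference at rest and, with the opposite sign, the response, so these comparisons share arrays and are given as values side by side.

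Trim30c, a member of the TRIM30 family of regulators of inflammatory signalling, had the smallest adjusted p (chromosome 7, 104382065 to 104400837, mm10, minus strand). Its log2 level with LPS was 3.98, 3.93 and 3.58 in high clones 69, 73 and 83, against 5.64, 5.64 and 5.72 in low clones 7, 29 and 75. Unstimulated, it was 3.61, 3.42 and 2.99 in high clones, against 3.19, 3.12 and 3.32 in low clones. With LPS every low clone stood above every high clone. At rest the groups overlapped, but all 6 levels lay below the array median, and no likeness of the phenotypes was read from them. The levels of high clones with LPS also lay below the array median. The response averaged 0.49 ± 0.11 in high clones and 2.46 ± 0.06 in low clones (SD, n = 3 each), a difference of −1.97 ± 0.13 (SE, adjusted p = 0.00322). In fold terms LPS raised Trim30c 1.40-fold in high clones and 5.49-fold in low clones.

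AW112010, a noncoding RNA known to be induced in macrophages by interferon and bacterial products, followed the same pattern (chromosome 19, 11047612 to 11050566, minus strand). With LPS its log2 level was 4.65, 3.63 and 3.78 in high clones 69, 73 and 83, against 7.02, 7.54 and 6.55 in clones 7, 29 and 75. At rest all 6 clones lay between 3.12 and 3.99, with overlapping groups. These levels were below the array median, and no likeness of the phenotypes was read from them. The response was 0.69 ± 0.35 in high clones and 3.33 ± 0.20 in low clones, a difference of −2.64 ± 0.20 (adjusted p = 0.00452).

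Cxcl11 had the most negative difference of the called genes (chromosome 5, 92359534 to 92365485, minus strand). Its log2 level with LPS was 7.51, 9.54 and 7.22 in high clones 69, 73 and 83, against 10.16, 10.40 and 10.73 in clones 7, 29 and 75. Its resting level was 5.26, 6.32 and 5.90 in high clones, against 4.62, 5.27 and 5.19 in low clones, and the groups overlapped. The response was 2.26 ± 0.95 in high clones and 5.40 ± 0.24 in low clones, or 4.80-fold against 42.3-fold. The difference of −3.14 ± 0.40 passed narrowly (adjusted p = 0.0498), and among high clones the response ran from 1.32 in clone 83 to 3.22 in clone 73.

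Ifit1bl1 and Ifit1bl2 are relatives of Ifit1 on chromosome 19. The response of Ifit1bl1 was 0.81, 0.93 and 1.60 in high clones 69, 73 and 83, against 3.13, 3.80 and 3.00 in clones 7, 29 and 75 (difference −2.20 ± 0.26, adjusted p = 0.0418). That of Ifit1bl2 was 1.61, 1.89 and 2.11 in high clones, against 3.30, 3.75 and 3.16 in low clones (difference −1.53 ± 0.20, adjusted p = 0.0498). With LPS every high clone lay below every low clone for both genes, and at rest the levels overlapped.

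Gbp11 belongs to the guanylate-binding proteins, interferon-induced GTPases that act on vacuoles of intracellular microbes. Its response was 1.02, 1.14 and 0.31 in high clones 69, 73 and 83, against 2.65, 2.99 and 3.26 in clones 7, 29 and 75 (difference −2.14 ± 0.24, adjusted p = 0.0345). With LPS all high clones lay below all low clones. At rest all levels were between 2.70 and 3.15, as low as those of the T cell gene Cd3e (2.60 to 3.52), and no order was read from them. The guanylate-binding protein, Ifit1bl and Trim30 families have close relatives in the genome. The array annotation marks the probes of the 4 members described here as unique, and whether they share signal with relatives was not tested.

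The predicted genes moved in the same way. LOC630751, annotated as interferon-inducible GTPase 1-like and marked as able to share probes with other transcripts, had responses of 0.64, 0.17 and −0.06 in high clones 69, 73 and 83, against 2.63, 2.46 and 2.91 in clones 7, 29 and 75 (difference −2.42, adjusted p = 0.00835). Gm12250, listed in RefSeq with the synonym Irgb10, an interferon-induced GTPase, had responses of 0.22, 0.01 and −0.12 in high clones, against 1.81, 1.91 and 2.74 in low clones (difference −2.12, adjusted p = 0.0345). Gm4951 had a difference of −1.90 (adjusted p = 0.0345). None of the 3 passed for its response in high clones. Their levels at rest overlapped between the phenotypes, but all lay below the array median, and no likeness was read from them.

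4930438A08Rik, with no role stated in the files, was the exception in direction (chromosome 11, 58263407 to 58294290, plus strand). Its log2 level with LPS was 6.30, 6.16 and 6.93 in high clones 69, 73 and 83, against 5.18, 4.40 and 4.70 in clones 7, 29 and 75, and at rest the groups overlapped. The response was 1.91 ± 0.13 in high clones and 0.52 ± 0.25 in low clones (difference 1.39 ± 0.16, adjusted p = 0.0382).

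**Figure D2:**
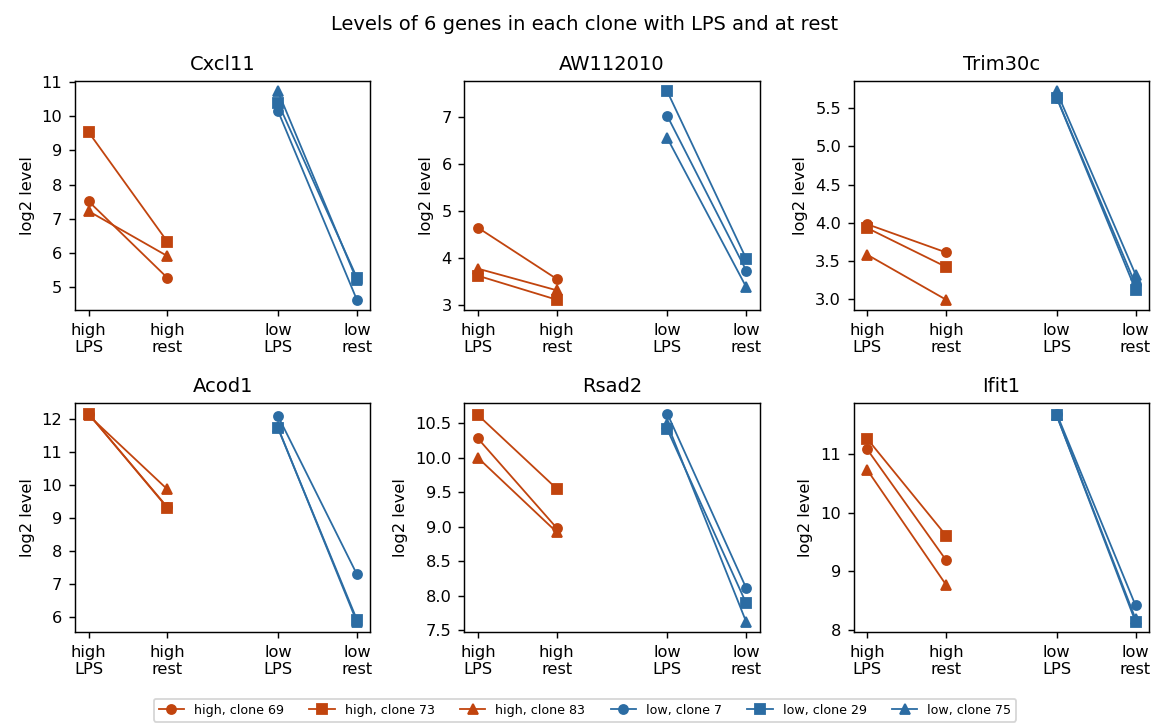
Log2 level of 6 genes in each clone with LPS and at rest (horizontal axis), a line joining the 2 arrays of a clone; red lines are the 3 high clones (left in each panel), blue lines the 3 low clones (right). Cxcl11, AW112010 and Trim30c have overlapping levels at rest and lower levels with LPS in high clones, whereas Acod1, Rsad2 and Ifit1 are higher in resting high clones. AW112010 and Trim30c lie below the array median at rest.

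The 4 genes called at rest were all higher in resting high clones. Acod1, whose enzyme makes the antimicrobial metabolite itaconate, showed it most (chromosome 14, 103046977 to 103056573, plus strand). With LPS its log2 level was 12.14, 12.15 and 12.10 in high clones 69, 73 and 83, against 12.08, 11.71 and 11.73 in clones 7, 29 and 75, a difference of 0.29 ± 0.30 (adjusted p = 0.799). Before LPS it was 9.32, 9.30 and 9.86 in high clones, against 7.30, 5.93 and 5.86 in low clones, a difference of 3.13 ± 0.30 (adjusted p = 0.00114). The groups thus lay far apart at rest and within 11.71 to 12.15 with LPS. The response was 2.64 ± 0.34 in high clones and 5.48 ± 0.61 in low clones (difference −2.84 ± 0.30, adjusted p = 0.0242). Acod1 lay close to the top of the measured range with LPS, since the highest gene of an array stood at 12.94 to 13.11; whether this limited its values was not tested.

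Rsad2, which encodes the antiviral enzyme viperin, and Ifit1, whose protein binds foreign RNA, also started higher in high clones. With LPS Rsad2 stood at 10.28, 10.62 and 10.00 in high clones 69, 73 and 83, against 10.64, 10.41 and 10.49 in clones 7, 29 and 75, with overlapping groups. At rest it was 8.98, 9.55 and 8.92 in high clones, against 8.11, 7.89 and 7.62 in low clones (difference 1.28 ± 0.19, adjusted p = 0.0081). The difference of responses was −1.49 ± 0.15 (adjusted p = 0.0242).

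Ifit1 crossed over. With LPS its level was 11.08, 11.26 and 10.73 in high clones 69, 73 and 83, against 11.69, 11.66 and 11.66 in clones 7, 29 and 75. All high clones lay below all low clones there, but the difference of −0.65 ± 0.19 did not pass (adjusted p = 0.146). At rest Ifit1 was 9.19, 9.61 and 8.77 in high clones, against 8.42, 8.14 and 8.19 in low clones (difference 0.94 ± 0.19, adjusted p = 0.0303). The response was 1.83 ± 0.16 in high clones and 3.42 ± 0.13 in low clones (difference −1.59 ± 0.15, adjusted p = 0.0127).

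Apol7b, of the apolipoprotein L family, was the only one of the 15 genes whose mean responses had opposite signs. They were −0.88, −1.34 and −0.93 in high clones 69, 73 and 83, against 0.45, 0.48 and 0.14 in clones 7, 29 and 75 (difference −1.41 ± 0.17, adjusted p = 0.0437). The fall in high clones passed (adjusted p = 0.00139) and the change in low clones did not (adjusted p = 0.106). With LPS the groups overlapped between 3.89 and 4.39, and at rest the gene was 1.30 higher in high clones (adjusted p = 0.0081). Its probes may bind other transcripts.

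Ifih1, the gene of the cytosolic viral RNA sensor MDA5, was called in neither condition alone. Its response was 1.28, 1.10 and 1.24 in high clones 69, 73 and 83, against 2.19, 2.57 and 2.64 in clones 7, 29 and 75 (difference −1.26 ± 0.16, adjusted p = 0.0481). With LPS the high minus low difference was −0.68 (adjusted p = 0.129) and at rest it was 0.58 (adjusted p = 0.233).

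Promoter windows from 250 bases before to 50 bases after the gene start were read from RefSeq (GRCm38.p6) because Ifit1, Rsad2 and Ifih1 moved together. Of the 15 genes 11 had an entry, with 13 windows. The interferon-stimulated response element, spelled as GAAA, any 2 bases and GAAA and searched on both strands, was found in the windows of 6 of the 11 genes, against 3.44% of all 32851 windows. The GAS motif TTCNNNGAA was found for 3 of the 11 (8.30% of all windows) and the STAT6-type motif, TTC and GAA around any 4 bases, for 0 of the 11 (6.95% of all windows). These matches describe letters and not sites in use. The windows of Ifit1 and Ifit1bl2 overlap head to head, and the 2 matches in that of Ifit1bl2 are the same bases as those of Ifit1 read from the other strand. In the sequences below, written 5′ to 3′ on the strand of the gene, capitals mark the response element. It begins 104 and 85 bases before the start of Ifit1, 120 bases before that of Rsad2 and 32 bases after that of Ifih1. The windows lie at chr19:34640639-34640938 (plus strand), chr12:26456403-26456702 (minus strand) and chr2:62646206-62646505 (minus strand) in that order.
Ifit1: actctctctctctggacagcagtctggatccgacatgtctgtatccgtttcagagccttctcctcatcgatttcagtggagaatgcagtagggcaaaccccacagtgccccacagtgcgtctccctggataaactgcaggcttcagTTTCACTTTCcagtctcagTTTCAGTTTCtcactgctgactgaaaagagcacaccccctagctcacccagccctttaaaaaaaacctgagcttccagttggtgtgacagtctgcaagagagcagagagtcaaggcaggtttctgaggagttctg
Rsad2: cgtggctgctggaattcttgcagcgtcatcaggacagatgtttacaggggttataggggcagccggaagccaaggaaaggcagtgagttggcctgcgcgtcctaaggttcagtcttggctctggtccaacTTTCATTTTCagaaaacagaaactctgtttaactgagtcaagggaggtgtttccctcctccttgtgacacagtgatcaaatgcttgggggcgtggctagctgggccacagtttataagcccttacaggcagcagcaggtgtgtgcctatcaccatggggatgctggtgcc
Ifih1: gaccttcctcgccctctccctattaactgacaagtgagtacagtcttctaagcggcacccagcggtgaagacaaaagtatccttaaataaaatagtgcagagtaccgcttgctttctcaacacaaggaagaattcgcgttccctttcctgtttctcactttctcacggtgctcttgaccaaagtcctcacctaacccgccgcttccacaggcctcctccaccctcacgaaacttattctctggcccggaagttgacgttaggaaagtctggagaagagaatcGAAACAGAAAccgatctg

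Beyond these calls, interferon-stimulated genes as a group had smaller mean responses in high clones. Of 39 listed and measured genes, 3 were called, all with a smaller response (Ifit1, Rsad2 and Ifih1, against 0.0513% of all genes). At an unadjusted p under 0.05, 31 were smaller and 0 larger, against 4.11% and 3.27% of all genes, and the difference was below 0 in 39 of 39, against 48.9% of all genes. The median difference was −0.71, against 0.0 over all genes. Responses of the 3 high clones were all below those of the 3 low clones for 26 of the 39, against 6.69% of all genes. The median response over the list was 1.13, 1.06 and 1.24 in high clones 69, 73 and 83, against 1.98, 2.26 and 2.10 in clones 7, 29 and 75, so each high clone lay below each low clone. LPS raised 32 of the 39 genes in high clones and 39 of 39 in low clones at an adjusted p under 0.05.

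The genes of this list fell into unequal sizes of difference. Among those not called were the antiviral GTPase gene Mx1 (−2.12 ± 0.30, adjusted p = 0.0893), the nucleic acid sensor gene Zbp1 (−1.57 ± 0.35, adjusted p = 0.355) and the guanylate-binding protein genes Gbp5 (−1.56 ± 0.25, adjusted p = 0.168) and Gbp2 (−1.24 ± 0.22, adjusted p = 0.221). The response of Mx1 was 0.53, 0.77 and −0.09 in high clones 69, 73 and 83, against 3.17, 2.26 and 2.13 in clones 7, 29 and 75, without overlap. Iigp1, an immunity-related GTPase, had −1.52 ± 0.21 (adjusted p = 0.0764), Cmpk2, the neighbour of Rsad2, −1.43 ± 0.21 (adjusted p = 0.106), Ifit2 −1.06 ± 0.16 (adjusted p = 0.142) and Isg15, a ubiquitin-like modifier, −1.03 ± 0.18 (adjusted p = 0.212). Of the genes of factors that act on these promoters, Stat2 was at −0.85 ± 0.15 (adjusted p = 0.204), Irf7 at −0.53 ± 0.32 (0.747) and Irf9 at −0.41 ± 0.19 (0.685). Outside the list, Ifi205, of the interferon-induced p200 family, had a difference of −3.45 ± 0.49 that did not pass (adjusted p = 0.0861). Gbp2, Iigp1, Cmpk2, Ifit2, Isg15, Ifi205 and the 3 factor genes were named after their values were seen.

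With LPS the median difference between the phenotypes over the 39 genes was −0.63 and at rest it was −0.01. Of the 39, 6 stood more than 0.5 higher in resting high clones and 0 stood more than 0.5 lower. Those 6, namely Ifit1, Rsad2, Ifih1, Cmpk2, Isg15 and Oasl1, had a median difference of −0.44 with LPS and 0.91 at rest. The genes were split by the difference at rest, so the medians at rest follow from the split. The other 33 had a median of −0.66 with LPS and −0.09 at rest, and 24 of them had LPS levels in all high clones below those in all low clones, against 7.70% of all genes. With LPS 6 of the 39 were called, all lower in high clones (against 0.333% of all genes). Gbp5 (−1.75, adjusted p = 0.00625), Iigp1 (−1.87, adjusted p = 0.000241) and Gbp2 (−1.39, adjusted p = 0.0322) were among these 6. At rest 3 of the 39 were called, all higher in high clones (Ifit1, Rsad2 and Oasl1, against 0.92% of all genes).

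**Figure D3:**
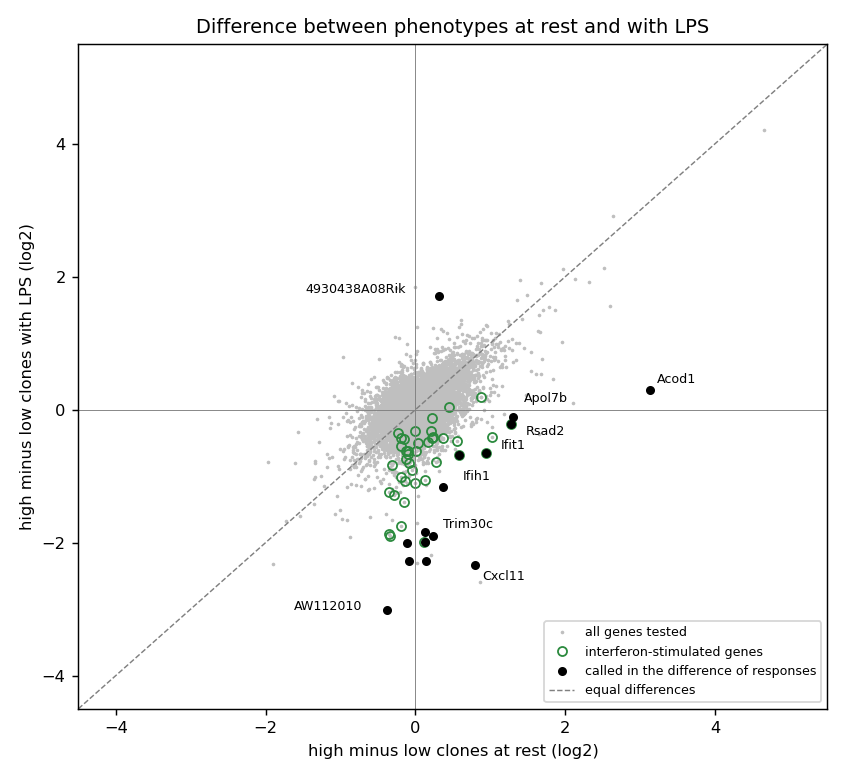
Each point is a gene, with the log2 difference of high minus low clones at rest on the horizontal axis and with LPS on the vertical axis; the distance below the dashed line is the size of a smaller response in high clones. Green circles are the 39 interferon-stimulated genes, all below the line, and black points the 15 genes called in the difference, with Acod1 far to the right and AW112010 and Cxcl11 at the bottom.

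Among genes upstream of this group, Ifnb1, the interferon beta gene, stayed between 2.46 and 2.94 on all 12 arrays, at the level of the T cell gene Cd3e (2.60 to 3.52), and no likeness of the phenotypes was read from its response. The interferon receptor genes Ifnar1 and Ifnar2 had differences of −0.06 (95% confidence interval −0.39 to 0.26) and −0.16 (−0.47 to 0.16). Tlr4, the LPS receptor gene, had 0.14 (−0.25 to 0.53, adjusted p = 0.871) and its partner Ly96 had −0.27 (−0.58 to 0.04, adjusted p = 0.704). Of 23 genes of the TLR4 receptor and pathway 0 were called by limma. At an unadjusted p under 0.05, 1 was lower, against 4.11% of all genes. The median difference was 0.03, and the largest was −0.53 for Irf5 (adjusted p = 0.529). Ifnb1, Ifnar1 and Ifnar2 were named after their values were seen.

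Of 23 measured chemokine genes 1 was called (Cxcl11, against 0.0513% of all genes lower), the median difference was −0.31, and 19 lay below 0 (against 48.9% of all genes). Cxcl10, the other CXCR3 ligand with a large response, stood at 11.28, 11.33 and 11.04 with LPS in high clones 69, 73 and 83, against 11.71, 11.39 and 11.66 in clones 7, 29 and 75. Without LPS it was 8.29, 9.45 and 9.15 in high clones, against 7.50, 7.12 and 7.31 in low clones (difference 1.65 ± 0.23, adjusted p = 0.00587). All 3 high clones thus lay below the low clones with LPS and above them at rest, and the difference of responses was −2.02 ± 0.28 (adjusted p = 0.0753). Cxcl9, the third ligand of that receptor, had −0.74 ± 0.13 (adjusted p = 0.221, named after its values were seen). The CC chemokine genes Ccl12 (−0.90, adjusted p = 0.648) and Ccl5 (−0.89, adjusted p = 0.462) did not pass either. Ccl5 stood at 12.23 to 12.90 with LPS, close to the top of the measured range, and whether this limited it was not tested. Ccl24, an eotaxin gene typical of IL-4-treated macrophages, fell in both phenotypes, by 2.58 in high clones and 2.90 in low clones, with a difference of 0.32 (−0.31 to 0.94).

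Of 26 inflammatory cytokine genes, 9 rose with LPS in high clones and 11 in low clones, against 3.04% and 4.77% of all genes, and 1 fell in low clones. In the difference of responses 0 were called by limma (median −0.06), and at an unadjusted p under 0.05 there were 2 higher and 4 lower (3.27% and 4.11% of all genes). Tnf stood at 12.10, 12.02 and 12.02 with LPS in high clones 69, 73 and 83, against 12.33, 11.96 and 12.01 in clones 7, 29 and 75. Its resting level was 10.37, 10.29 and 10.40 in high clones, against 9.83, 9.67 and 9.57 in low clones (difference 0.66 ± 0.11, adjusted p = 0.0166). Its responses of 1.73, 1.73 and 1.62 in high clones lay below the 2.50, 2.29 and 2.44 of low clones, a difference of −0.72 ± 0.13 that did not pass (adjusted p = 0.224). The Tnf level with LPS was, like that of Acod1, close to the top of the measured range, and whether this limited it was not tested. Il1a (−0.44, −1.52 to 0.64), Il1b (−0.64, −1.01 to −0.27, adjusted p = 0.456) and Il6 (−1.05, −2.74 to 0.64) also did not pass.

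The neutrophil growth factor gene Csf3 ran the other way. With LPS it reached 7.82, 8.42 and 7.50 in high clones 69, 73 and 83, against 6.77, 5.81 and 5.62 in clones 7, 29 and 75 (difference 1.85, adjusted p = 0.00985), from overlapping levels at rest. The responses of 4.03, 4.02 and 2.94 in high clones lay above the 2.63, 1.37 and 1.43 of low clones, but the difference of 1.85 ± 0.39 did not pass over all genes (adjusted p = 0.311). Il12b, a subunit of IL-12 and IL-23, had 1.11 ± 0.40 (adjusted p = 0.61).

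Among antimicrobial and inflammatory effectors 1 of 36 was called (Acod1, against 0.0513% of all genes lower) and the median difference was −0.13. The acute phase gene Saa3 resembled Acod1, lying between 12.31 and 12.88 in all clones with LPS. At rest it was 9.65, 9.16 and 8.99 in high clones 69, 73 and 83, against 8.11, 6.33 and 7.05 in clones 7, 29 and 75 (difference 2.10 ± 0.34, adjusted p = 0.0107), and the difference of responses was −2.01 ± 0.37 (adjusted p = 0.229). As for Acod1, the level with LPS was close to the top of the measured range, and whether this limited it was not tested. The NADPH oxidase gene Cybb had −0.84 ± 0.21 (adjusted p = 0.45), Nos2, the inducible nitric oxide synthase, −0.63 ± 0.42 (adjusted p = 0.774), and Fpr1, a receptor for bacterial peptides, 1.22 ± 0.42 (adjusted p = 0.595).

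Of 28 NF-kB subunits, feedback genes and regulators 0 were called by limma (6 at an unadjusted p under 0.05, all lower, against 4.11% of all genes), with a median difference of −0.20. In 9 of the 28 the responses of all high clones lay below those of all low clones, against 6.69% of all genes. The inhibitor genes Nfkbie (−0.87, adjusted p = 0.221), Tnfaip3 (−0.68, adjusted p = 0.308) and Nfkbia (−0.64, adjusted p = 0.406) had the largest values. Of 18 genes of antigen presentation and co-stimulation 0 were called (median −0.30). At an unadjusted p under 0.05 there were 6, all lower, against 4.11% of all genes. Cd40 was at −0.95 (adjusted p = 0.457), the peptide transporter gene Tap1 at −0.87 (0.385) and Cd274, which encodes PD-L1, at −0.85 (0.292).

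The LPS responses of IL-4 receptor pathway genes were compared next. The response of Il4ra itself was 0.80, 0.92 and 0.66 in high clones 69, 73 and 83, against 0.85, 0.63 and 0.72 in clones 7, 29 and 75, a difference of 0.06 (95% confidence interval −0.25 to 0.37, adjusted p = 0.938). Il13ra1 had −0.06 (−0.36 to 0.23), Stat6 0.01 (−0.28 to 0.30), Jak3 −0.33 (−0.74 to 0.08) and the feedback inhibitor Socs1 −0.34 (−0.66 to −0.02, adjusted p = 0.649). Il2rg, the common gamma chain, had responses of 0.68, 1.21 and 0.36 in high clones, against 1.39, 1.91 and 2.08 in low clones, a difference of −1.04 ± 0.25 that did not pass (adjusted p = 0.392). Of 22 genes of the receptor complex and signalling 0 were called (median 0.0). At an unadjusted p under 0.05, 3 were lower, against 4.11% of all genes. Of 36 IL-4-induced genes 0 were called (median −0.10, 1 higher and 6 lower at an unadjusted p under 0.05, against 3.27% and 4.11% of all genes). The beta-glucan receptor gene Clec7a had −0.94 (adjusted p = 0.292). Arg1 (3.88 to 4.30) and Chil3 (2.54 to 3.52), classic IL-4-induced genes, lay below the array median on all 12 arrays, and no likeness of the phenotypes was read from their responses.

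**Figure D4:**
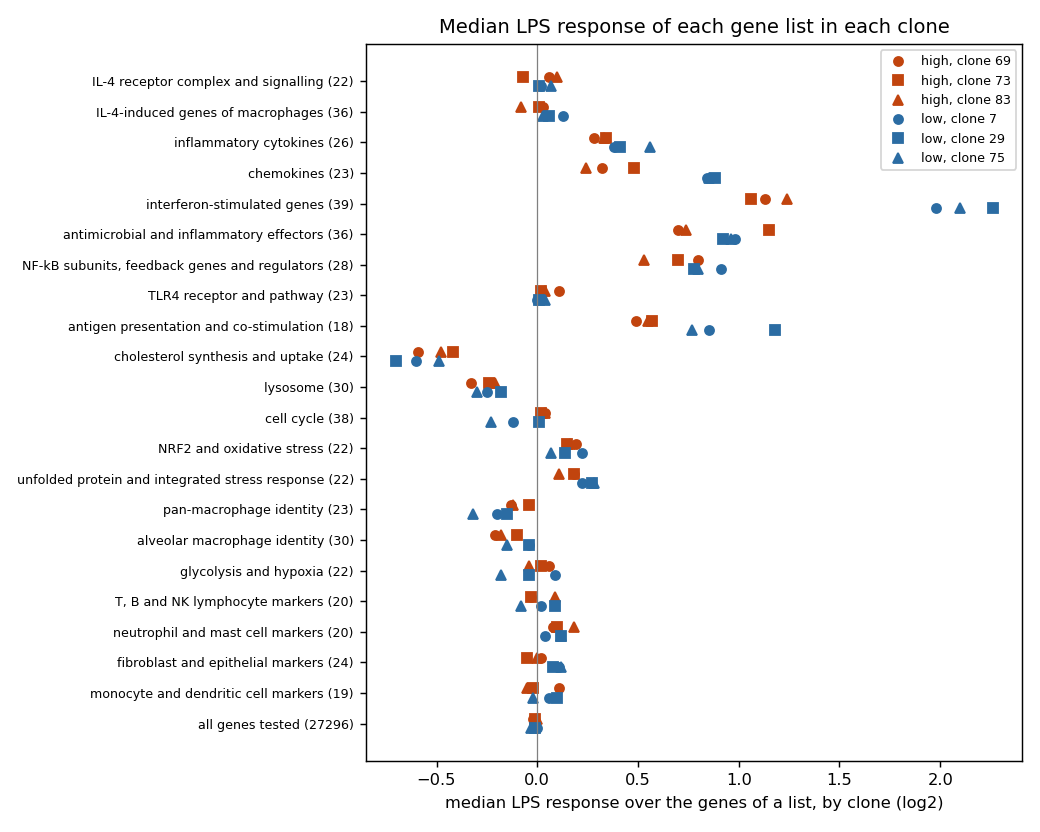
Median LPS response (log2) over the genes of each list in each clone, with the number of genes measured in brackets; red symbols are the high clones and blue symbols the low clones. The interferon-stimulated genes lie at 1.06 to 1.24 in high clones and 1.98 to 2.26 in low clones; most other lists differ by less.

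The remaining lists held 0 genes called by limma each, and 0 to 5 genes at an unadjusted p under 0.05. Over all genes, 3.27% were higher and 4.11% lower at that threshold. Their median differences were 0.18 for cholesterol synthesis and uptake, 0.17 for pan-macrophage identity, 0.13 for the cell cycle, −0.08 for the unfolded protein and integrated stress response and between 0.0 and 0.03 for the lysosome, oxidative stress, glycolysis and alveolar macrophage lists. Among markers of other cells, the medians were 0.03 for lymphocytes, 0.0 for neutrophils and mast cells, −0.08 for monocytes and dendritic cells and −0.14 for fibroblasts and epithelium. Several lists exceeded the shares of all genes at the unadjusted threshold. Genes lower and higher numbered 4 and 0 among 22 for the stress response and 1 and 3 among 24 for cholesterol. The cell cycle list had 0 and 3 among 38, and the pan-macrophage list 2 and 3 among 23. All high clones responded less than all low clones for 6 stress response genes and 2 cell cycle genes, and more for 0 and 8. The shares over all genes were 6.69% and 6.46%. The fibroblast and epithelial list held 19 of 24 genes below 0, and its summed level (as log2) with LPS was 9.38 to 9.41 in high clones and 9.31 to 9.94 in low clones. Unstimulated, it was 9.20 to 9.31 in high clones and 9.22 in low clones. Dcn, a matrix proteoglycan of fibroblasts, had a difference of −2.32 ± 0.71 (adjusted p = 0.55). The epithelial genes Epcam, Sftpc and Scgb1a1 stayed between 2.83 and 4.01, whereas Krt8 lay at 4.49 to 4.92. Of other fibroblast genes, Col1a1 lay at 7.85 to 8.67, Col3a1 at 3.49 to 4.24 and Pdgfra at 2.96 to 3.86. The part of this list in the differences above was not tested.

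Responses were also counted over all genes that LPS raised, with the listed genes kept in. LPS raised 302 genes by at least 1 log2 unit in the mean of all 6 clones, and the mean response was smaller in high clones for 261 of them (86.4%, against 48.9% of all genes). The median difference over these genes was −0.54. Their median response was 1.33, 1.29 and 1.13 in high clones 69, 73 and 83, against 1.78, 1.77 and 1.85 in clones 7, 29 and 75. LPS lowered 156 genes by at least 1, and for 119 of these (76.3%) the difference was above 0, that is, the fall was smaller in high clones, with a median difference of 0.25. Of the 302 raised genes, 14 were called, against 0.055% of all genes. A gene with little response in both phenotypes could hardly be called, so this share adds no support. These 14 include 4930438A08Rik, whose response was larger in high clones, and not Apol7b, which was not raised.

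In the direction of larger values in high clones, the genes with the smallest p after 4930438A08Rik did not pass. Alox5, the 5-lipoxygenase gene of leukotriene synthesis, came closest. Its response was −0.59, −0.91 and −0.82 in high clones 69, 73 and 83, against −1.75, −1.73 and −1.80 in clones 7, 29 and 75, a smaller fall in high clones (difference 0.99 ± 0.14, adjusted p = 0.0771). The integrin gene Itga9 (0.95, adjusted p = 0.202), the co-stimulator gene Icos (0.87, 0.292) and the histone genes H2ac1 (1.24, 0.308) and H2bc1 (1.30, 0.308) followed. The other genes among the 11 nearest to the threshold had adjusted p of 0.295 to 0.311.

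Most genes called between the phenotypes at rest had a difference of the same sign with LPS. Both comparisons use the same 6 clones and 1 fit with a shared estimate of the spread, so they are not independent of each other. Of the 310 genes called at rest, 166 were called with LPS (53.5% of those at rest and 46.2% of the 359 called with LPS), all 166 in the same direction, and 294 of the 310 had the same sign. Their median absolute difference at rest was 0.71, but they were picked by that difference. Their median absolute difference of responses was 0.19, and 252 of the 310 had one under 0.5 in size. The medians are therefore not set against each other. Shares over all genes to set beside the 294 and the 252 were not counted. Of the 144 genes called at rest and not with LPS, 4 had a difference of responses that passed, against 0.055% of all genes. Of the 193 genes called with LPS and not at rest, 113 were higher and 80 lower in high clones. A difference of responses that passed was found for 10 of them, against 0.055% of all genes. Both sets were chosen by comparisons that share arrays with the difference of responses, so no excess was read from these counts. Among the 193, 115 had an unadjusted p under 0.05 at rest in the same direction (over all genes 5.80% higher and 4.69% lower), so being called only with LPS did not by itself show a different response.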

How the data were processed

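RNA of 12 cultures was hybridised to Mouse Gene 2.1 ST arrays of Affymetrix. The authors deposited log2 values from Expression Console, per the submitters' processing notes, computed by RMA (background correction, quantile normalization, median polish), per the file headers. The annotation is NetAffx build 34 on mm10. The deposited series matrix holds the same values (largest difference 0 over 41155 shared features), and 0 columns of values per sample went unused.

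Of 41345 features, 29294 are of category main with a symbol. Of these 29294 features, 25154 matched RefSeq by gene ID (1885 symbols updated). The feature with the highest mean stood for each of 1370 genes with several, which left 27296 genes. limma 3.58.1 (lmFit, eBayes; R 4.3.3) was fitted to the 6 within-clone differences. The comparisons at rest and with LPS came from 1 fit of the 4 groups over 12 arrays. Tests were two-sided, with Benjamini-Hochberg adjustment over all genes; errors are SE of a difference or SD over 3 clones. The labels pair the arrays by clone, and deviations of a clone's arrays from the group means correlated at 0.1 to 0.415. In simulated data with 27296 genes, differences of 0.5, 1, 1.5 and 2 were planted in 50 genes each. The test of the difference of responses recovered 6%, 66%, 100% and 98% of them in that order, and 9 unchanged genes were called. The simulated noise was normal and more genes were changed than were called here, so these shares may not hold for the measured arrays. Some measured differences larger than 1.5 in size, among them those of Mx1 and Ifi205, did not pass.

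Named were the genes called, those nearest to the threshold in the direction with few calls, up to 3 members not called per list, and a fixed set of pathway genes; predicted genes are only counted, with the exceptions stated. Members and lists were chosen with earlier results of these data known. Alternatives changed the pairing, clones, variance model, normalization, features and thresholds.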

Additional observations from a re-analysis of the deposited data

Results flagged for a closer look

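All 15 genes whose LPS responses differed between high and low clones in the test of the difference itself are given here, as high minus low on the log2 scale. The difference was −3.14 for Cxcl11, −2.84 for Acod1, −2.64 for AW112010, −2.42 for LOC630751, −2.20 for Ifit1bl1, −2.14 for Gbp11, −2.12 for Gm12250, −1.97 for Trim30c, −1.90 for Gm4951, −1.59 for Ifit1, −1.53 for Ifit1bl2, −1.49 for Rsad2, −1.41 for Apol7b and −1.26 for Ifih1. It was 1.39 for 4930438A08Rik. The responses of the 3 high clones and the 3 low clones did not overlap for any of these genes. Over all genes, high clones were all below in 6.69% and all above in 6.46%. The 15 genes were picked by a test on these same responses, so the lack of overlap adds no support.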

How the results depend on the processing

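The differences of all 15 called genes kept their sign under each alternative that gave a value for them, but the number of calls depended on the settings. Against 14 smaller and 1 larger response, leaving out 1 clone at a time gave 3 to 5 and 0 to 1. The 4-group fit without the clone pairing (no replicate block) gave 3 and 0, and limma with trend and robust settings also gave 3 and 0. The clone as a random block gave 11 and 0, and leaving out genes with a mean log2 level under 5 gave 7 and 2. A further quantile normalization gave 9 and 1, and every feature as its own row gave 9 and 1; fewer clones by construction give fewer degrees of freedom, and the other causes were not tested. Of the 15 genes, Trim30c passed in 14 of 14 alternatives, AW112010 in 13 of 14 and LOC630751 in 11 of 13; the others passed in 3 to 8.

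The classes changed with the calls. Genes called at rest numbered 0 to 1 when a clone was left out and 0 without the pairing or with trend and robust settings. Those called only with LPS numbered 3 to 4 without a clone, and 3 without the pairing, with trend and robust settings or without dim genes. Those called in neither numbered 0 to 1 without a clone and 3 without dim genes. They numbered 0 without the pairing, with the random block, with trend and robust settings, after quantile normalization, on scaled arrays, with every feature as its own row, and where rest was judged by an unadjusted p or by a difference of at least 0.5.

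At rest, leaving out a clone gave 37 to 149 genes higher and 1 to 42 lower in high clones, the 6 unstimulated arrays alone gave 48 and 5, and leaving out dim genes gave 120 lower. With LPS, leaving out a clone gave 77 to 127 higher and 31 to 65 lower, and the 6 LPS arrays alone gave 89 and 38. The LPS response of high clones had 354 to 935 genes higher and 334 to 1171 lower without a clone, 497 and 562 without the pairing, and 1316 and 1517 without dim genes. That of low clones had 780 to 1176 higher and 892 to 1410 lower without a clone, and 1034 lower in the 3 low clones alone. Smaller mean responses in high clones were found for 38 to 39 of the 39 interferon-stimulated genes and 248 to 267 of the 302 raised genes when a clone was left out, an alternative added for these counts after seeing the data.

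Some differences near 0 changed sign. Leaving out 1 clone at a time gave −0.82 to 0.10 for Fabp4, −0.0033 to 0.13 for Il4ra, −0.03 to 0.24 for Tlr4, −0.89 to 0.06 for Il1a, −0.06 to 0.13 for Arg1, −0.53 to 0.06 for Chil3, −0.005 to 0.53 for Ccl24 and −0.17 to 0.03 for Ifnar1. Stat6 was −0.05 without clone 69, −0.02 without clone 29 and −0.01 after quantile normalization, and Cat was 0.02 with the mean of its features; the cause was not tested. The number of clones limits what can be seen, since simulated differences of 0.5 were recovered for 6% of genes.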
